A study of Mus musculus with 6 samples.

Results

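The genes that carry pyruvate into the mitochondrion and around the tricarboxylic acid (TCA) cycle were examined in brown adipose tissue (BAT) of sST2-KO mice. The members were 35 genes taken by symbol, out of 35976 rows of the count table: the subunits of pyruvate dehydrogenase (PDH), its kinases and phosphatases, the TCA cycle enzymes, and the shuttle and anaplerotic enzymes in their mitochondrial and cytosolic forms. All 35 had enough reads to be tested. RNA-seq libraries came from 3 sST2-KO mice and 3 wild-type (WT) littermates on a C57BL/6J background, 10-week-old males. The sST2-KO mice were homozygous for a CRISPR/Cas9 deletion of the part of Il1rl1 between exons 8 and 9, which takes away the stop codon of the soluble form (sST2) and leaves the membrane receptor ST2L. In both groups the nerves to BAT, which carry its sympathetic and sensory supply, had been cut by surgery. The mice were then kept at 10 °C for 8 h. Every value is therefore from denervated and cold-exposed tissue, and the deletion was in the whole body, not limited to BAT.

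Pyruvate dehydrogenase converts pyruvate into acetyl-CoA. Its kinases switch the complex off by phosphorylation and its phosphatases switch it back on. The TCA cycle then oxidizes acetyl-CoA and passes electrons to the respiratory chain. In brown adipocytes, this flux feeds the heat production of uncoupled mitochondria. Anaplerotic enzymes refill the cycle, and paired cytosolic and mitochondrial enzymes shuttle reducing equivalents and carbon across the inner membrane.

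Library totals ranged from 8159442 to 12874809 counts. Levels are given as CPM, counts relative to the library total after scaling by TMM factors. The test between groups was edgeR's quasi-likelihood F test over 14542 genes, with Benjamini-Hochberg adjustment. Log2 fold changes are sST2-KO against WT, each with its standard error, and calls were made under an adjusted p of 0.05. Il1rl1 had 19, 19 and 6 counts in WT mice and 55, 69 and 142 in sST2-KO mice, which add up reads of both forms and do not check the genotype. The summed CPM of 12 skeletal muscle markers was 1396, 74.2 and 66.7 in WT mice and 7110.1, 3899 and 16240.0 in sST2-KO mice, and that of 10 liver markers was 446, 5686 and 274 against 88.2, 82.7 and 68.3. Of the liver sum, Cyp2e1 alone made up 396, 336 and 244 CPM in WT and 79.4, 72.6 and 59.1 CPM in sST2-KO mice. This was most of the sum in every library but WT replicate 2. The 10 macrophage markers summed to 1174, 1105 and 873 in WT and 1549, 1522 and 6423 CPM in sST2-KO mice. Within their groups, WT replicate 1 thus stood apart in muscle markers, WT replicate 2 in liver markers, and sST2-KO replicate 3 in muscle and macrophage markers. In sST2-KO replicate 3 the 13 protein-coding genes of mitochondrial DNA also took 6.80% of all counts, against 11.8% to 16.6% in the other libraries. The part of these features in the members' values was not tested. The defining brown adipocyte markers Ucp1 and Cidea were present in every library, at lower levels in sST2-KO mice. Ucp1 had a mean of 7404 CPM in WT and 452 CPM in sST2-KO mice, and Cidea 2094 and 202 CPM.

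Of the 35 genes of pyruvate and TCA metabolism, 22 fell in sST2-KO mice and 2 rose. In these bulk samples, fewer cells of a type and less RNA per cell cannot be told apart. The 22 make up 62.9% of the members, while 9.1% of all genes tested were called lower, and the 2 make up 5.71%, while 10.5% of all genes were called higher. The same 22 and 2 counts held with a fold change above 2, where 7.1% of all genes were lower and 9.04% higher. In 27 members (77.1%) the highest sST2-KO library was below the lowest WT library, against 19.7% of all genes, and in 3 members (8.57%) the lowest sST2-KO library was above the highest WT library, against 21.8% of all genes. The median log2 fold change of the members was -1.47, and that of all genes tested was 0.034. Scaling by total counts moved the latter to 0.29 and the split of all genes from 1323 lower and 1524 higher to 891 (6.13%) and 2181 (15%). With it, 20 members were lower and 2 higher, and the members' median was 1.51 below that of all genes. That gap was almost fixed in advance, since a scaling shifts all genes nearly alike.

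The calls leaned on single WT libraries. Without WT replicate 3, 0 members were called in either direction by edgeR. The loss was general, since 0.146% of all genes were then called lower and 0.239% higher. At an unadjusted p under 0.05 in that fit, 24 members were lower and 2 higher, while 3797 of 15085 genes differed in either direction. Without WT replicate 2, 13 members were called lower and 0 higher, and 3.25% and 2.65% of all genes were called. At an unadjusted p under 0.05 in that fit, 24 members were lower and 3 higher, while 4407 of 14846 genes differed in either direction. Leaving out WT replicate 1 gave 21 lower and 1 higher, with 8.04% of all genes in each direction. With sST2-KO replicate 1, 2 or 3 left out, 19, 17 and 17 members were lower and 2 higher each time, while 6.91%, 6.2% and 4.65% of all genes were lower and 10.2%, 7.12% and 4.86% higher. Pdhb, Dlat, Dld, Pdhx, Cs, Idh3a, Ogdh, Dlst, Suclg1, Fh1, Mdh2 and Mdh1 lost their call in 1 of these 6 fits, the one without WT replicate 3. Pdha1, Idh3g and Sucla2 lost it without WT replicate 2 or 3, and Pdk2 and Pcx also without sST2-KO replicate 2. DESeq2 called 26 members lower and 2 higher, and 13% of all genes lower and 14.1% higher.

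**Figure D1:**
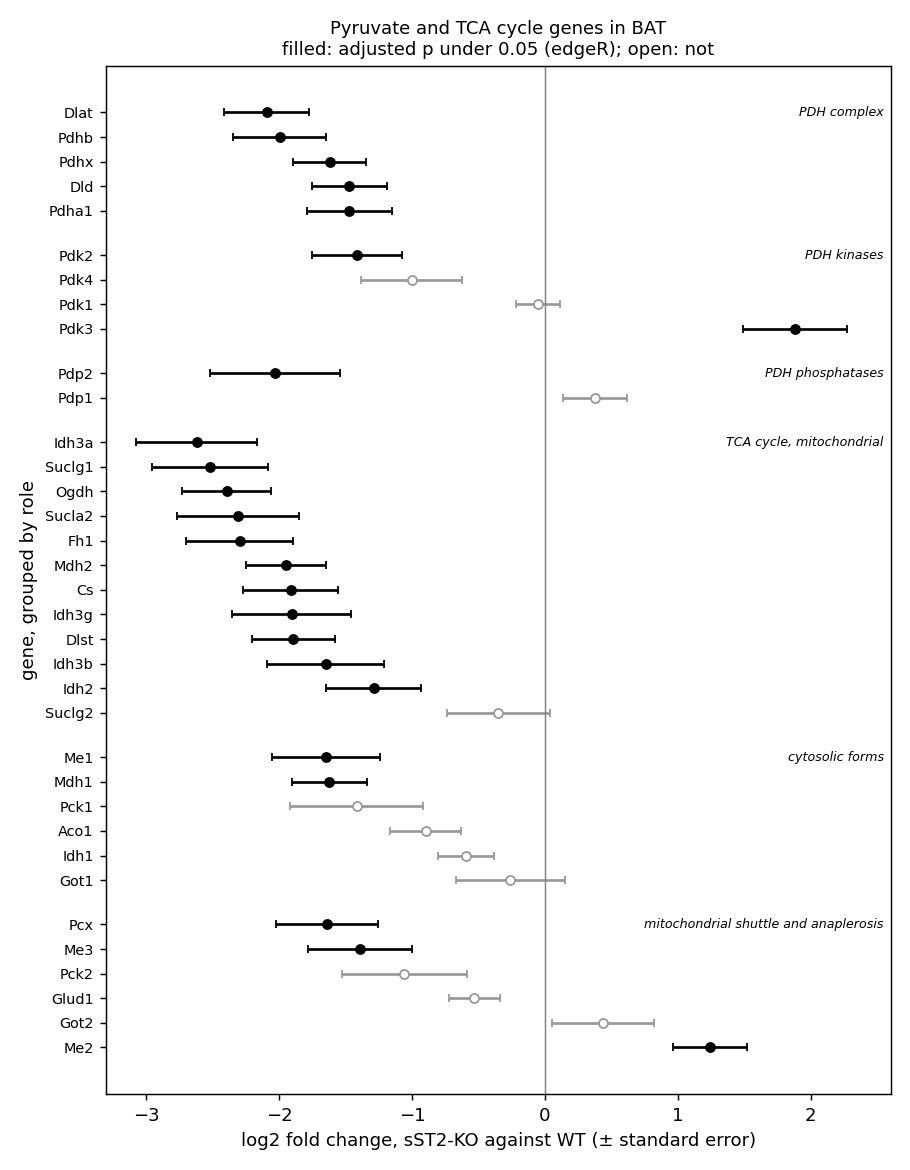
Log2 fold change (sST2-KO against WT, x axis) of each of the 35 genes (y axis), grouped by role, with the standard error as a bar. Filled points passed an adjusted p of 0.05 in edgeR's test; the 5 PDH subunits and 11 of 12 mitochondrial TCA cycle genes lie left of 0 and passed, and Pdk3 and Me2 are the genes right of 0 that passed.

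All 5 genes of the PDH complex fell. Pdha1, the catalytic E1 alpha subunit (chrX:158904237-158921426 in GRCm39), had 869, 791 and 1194 CPM in WT and 424, 378 and 227 CPM in sST2-KO mice. The groups did not overlap, and the log2 fold change was -1.47 ± 0.32 (adjusted p = 0.0227, edgeR). Dlat, the E2 acetyltransferase core of the complex, moved most, from 399, 265 and 464 CPM to 78.8, 119.6 and 65.8 CPM. This was a log2 fold change of -2.09 ± 0.32 (adjusted p = 0.0136, same test). Pdhb, the E1 beta subunit, fell from 528 ± 188 to 132 ± 40.5 CPM (SD, n = 3) and a log2 fold change of -1.998 ± 0.35. Dld, the E3 dehydrogenase that PDH shares with 2-oxoglutarate dehydrogenase, had a log2 fold change of -1.47 ± 0.28, and Pdhx, the E3-binding protein, -1.62 ± 0.28. The 5 genes thus fell by 1.47 to 2.09 on the log2 scale, with no overlap between groups in any of them.

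The 4 PDH kinases did not move together. Pdk4, the kinase that rises with fasting and fatty acid use, was the second most abundant member per transcript length, with 1183 ± 237 CPM per kb (SD, n = 3) of the canonical transcript in WT mice. It had 3423, 5054 and 4868 CPM in WT and 2707, 2625 and 1322 CPM in sST2-KO mice. Every sST2-KO value was below every WT value, as in 19.7% of all genes. The log2 fold change of -1.004 ± 0.38 did not pass edgeR's test (adjusted p = 0.103), whereas DESeq2 gave an adjusted p of 0.0127. Pdk2, the most widely expressed kinase, fell from 280.4, 399.7 and 412 CPM to 191, 136 and 82.4 CPM, a log2 fold change of -1.42 ± 0.34 (adjusted p = 0.0291, edgeR). Pdk1, a kinase induced by hypoxia, had 61.6, 73.4 and 67.6 CPM in WT and 71.2, 60.6 and 63.2 CPM in sST2-KO mice. These values overlapped, and the log2 fold change was -0.054 ± 0.16 (adjusted p = 0.841, same test).

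Pdk3 was the kinase that rose. It had 3.54, 3.20 and 4.44 CPM in WT and 7.67, 13.6 and 19.9 CPM in sST2-KO mice, from 34 to 38 counts against 110 to 202 counts. The log2 fold change was 1.88 ± 0.39 (adjusted p = 0.0203, edgeR), with the highest value in sST2-KO replicate 3. Without WT replicate 1, 2 or 3 its adjusted p rose above the threshold, to at most 0.0754, and the log2 fold change ranged from 1.51 to 2.17 with each library left out. Pdk3 stayed a small part of the kinase transcripts. Per transcript length, Pdk4 made up 87.3% ± 0.37 of the summed kinase level in WT and 88.1% ± 1.97 in sST2-KO mice (SD, n = 3), while Pdk3 went from 0.115% ± 0.0271 to 1.03% ± 0.849 (SD, n = 3). These shares are a description and were not tested.

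The phosphatases differed as well. Pdp2, a phosphatase catalytic subunit known from fat and liver, had 93.8, 113 and 170.4 CPM in WT mice and 19.7, 55.8 and 16.9 CPM in sST2-KO mice, at a log2 fold change of -2.03 ± 0.49 (adjusted p = 0.0293, edgeR). Its call was lost without WT replicate 2 or 3 or sST2-KO replicate 1 or 3, with a log2 fold change from -2.80 to -1.74. Pdp1, the calcium-stimulated phosphatase, had 12.6, 12.3 and 11.3 CPM in WT and 14.4, 12.7 and 19.8 CPM in sST2-KO mice. The groups of Pdp1 did not overlap, and 21.8% of all genes likewise lay higher without overlap. The Pdp1 log2 fold change of 0.38 ± 0.24 did not pass (adjusted p = 0.296, same test). Per transcript length, Pdp2 was 88.8% ± 3.34 of the summed phosphatase level in WT and 57.3% ± 19.03 in sST2-KO mice (SD, n = 3), and sST2-KO replicate 3 was the only library with more Pdp1 than Pdp2.

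**Figure D2:**
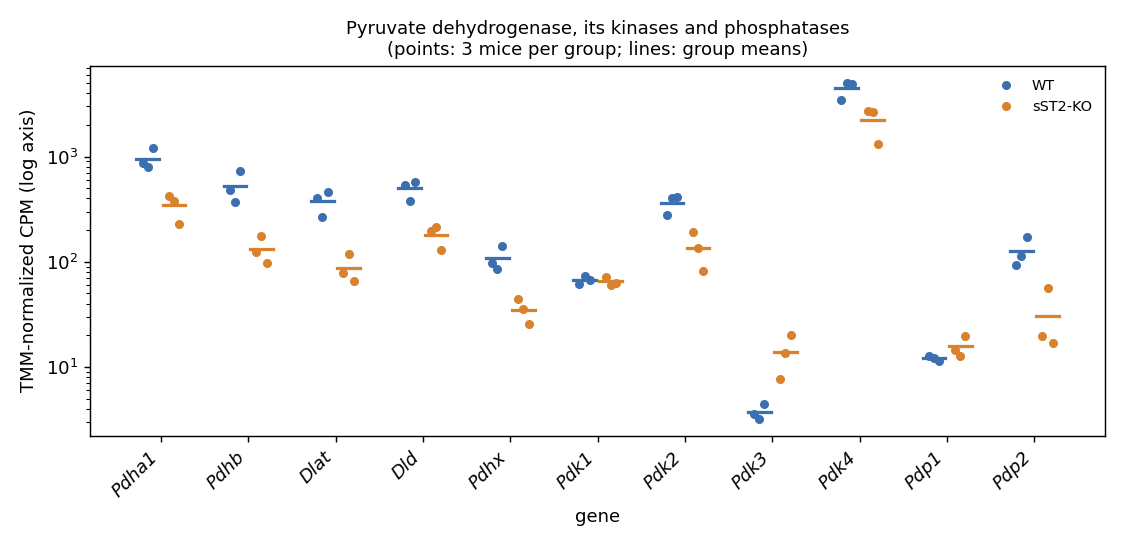
TMM-normalized CPM (y axis, log scale) of the PDH subunits, kinases and phosphatases (x axis) in each of 3 WT and 3 sST2-KO mice, with lines at the group means. The sST2-KO points lie below the WT points in all 5 subunits, Pdk2, Pdk4 and Pdp2, overlap in Pdk1, and lie above them in Pdk3 and Pdp1.

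Of 12 mitochondrial TCA cycle genes, 11 fell, with a median log2 fold change of -1.93 over the 12. Cs, citrate synthase, which starts the cycle, had 1370.5, 1488 and 1974 CPM in WT mice and 476, 549 and 257 CPM in sST2-KO mice. The lowest WT library was above the highest sST2-KO library, and the log2 fold change was -1.91 ± 0.35 (adjusted p = 0.0167, edgeR). The NAD-linked isocitrate dehydrogenase, a control point of the cycle, has 3 subunits. Idh3a, the catalytic subunit, had the largest fall of all 35 genes, from 1009.6, 954 and 1509.5 CPM to 139, 315 and 111 CPM, a log2 fold change of -2.62 ± 0.45 (adjusted p = 0.0154, same test). The regulatory subunits Idh3b and Idh3g had log2 fold changes of -1.65 ± 0.44 and -1.91 ± 0.45, and the call of Idh3b held in 1 of the 6 fits that left out a library, the one without WT replicate 1. In WT mice Idh3a made up 29.1% ± 5.04 of the summed level of the 3 subunits per transcript length, and in sST2-KO mice 18.7% ± 6.42 (SD, n = 3). The log2 ratio of Idh3a to Idh3b counts, picked after the values were seen and not tested, was 0.68, -0.022 and 0.35 in WT and -1.45, -0.23 and -0.32 in sST2-KO mice.

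2-Oxoglutarate dehydrogenase is built like PDH and uses the same E3 subunit. Ogdh, its E1 subunit, had 1245, 1408 and 2047 CPM in WT and 271, 392 and 230.1 CPM in sST2-KO mice and a log2 fold change of -2.40 ± 0.33 and the smallest adjusted p of the members (0.0132, edgeR). Dlst, its E2 subunit, had a log2 fold change of -1.90 ± 0.31 (adjusted p = 0.0148, same test). Fh1, fumarate hydratase, fell from 633 ± 246 to 129 ± 47.1 CPM (SD, n = 3), by 2.30 on the log2 scale. Mdh2, mitochondrial malate dehydrogenase, fell from 845 ± 266 to 218 ± 36.8 CPM (SD, n = 3). Idh2, the NADP-linked mitochondrial isocitrate dehydrogenase, showed the smallest fall among the 11, -1.29 ± 0.36 (adjusted p = 0.0428, same test), and its call was lost without WT replicate 2 or 3 or sST2-KO replicate 1 or 3.

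Succinyl-CoA ligase joins a shared alpha subunit, Suclg1, to 1 of 2 beta subunits, the ATP-forming Sucla2 or the GTP-forming Suclg2. Suclg1 fell from 641, 639 and 1129 CPM to 131, 212 and 77.5 CPM, a log2 fold change of -2.52 ± 0.44 (adjusted p = 0.0154, edgeR). Sucla2 fell from 947, 989.7 and 1393 CPM to 206, 361 and 105 CPM, a log2 fold change of -2.31 ± 0.46 (adjusted p = 0.0187, same test). Suclg2, in contrast, had 102, 149 and 123 CPM in WT and 151, 95.2 and 47.8 CPM in sST2-KO mice. Its groups overlapped, sST2-KO replicate 1 being the highest of all 6 libraries, and the log2 fold change was -0.35 ± 0.39 (adjusted p = 0.557, same test). The log2 ratio of Suclg2 to Sucla2 counts was -3.21, -2.73 and -3.50 in WT mice and -0.45, -1.92 and -1.14 in sST2-KO mice. This ratio did not overlap between groups and differed by 1.98 ± 0.48; it was picked after the values were seen and is given without a test. Per transcript length, Suclg2 was 9.10% ± 2.27 of the beta subunits in WT mice and 28.6% ± 10.1 in sST2-KO mice (SD, n = 3).

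**Figure D3:**
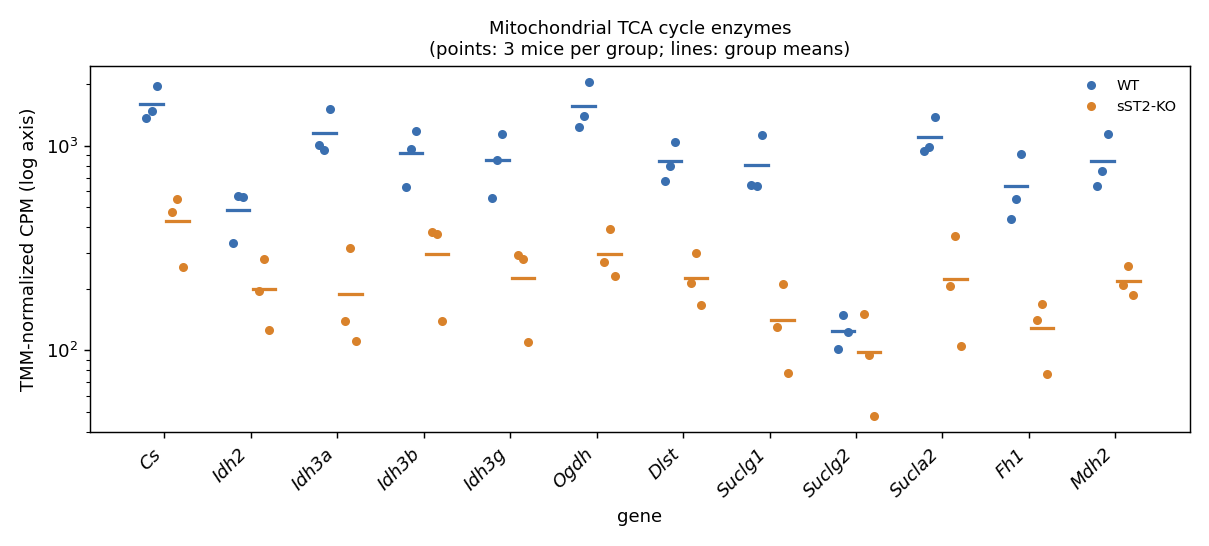
TMM-normalized CPM (y axis, log scale) of 12 mitochondrial TCA cycle genes (x axis) in each of 3 WT and 3 sST2-KO mice, with lines at the group means. In 11 genes all sST2-KO points lie below all WT points, and in Suclg2 the groups overlap.

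The promoters of the members were searched for motifs of regulators of mitochondrial genes. RefSeq promoters (GRCm38.p6), 250 bases before to 50 after each listed start, matched 32 of the 35 genes by symbol, all but Idh3a, Pdp1 and Me2. The half-site bound by estrogen-related receptors, TNAAGGTCA on either strand, was found in 0 of these 32 genes and in 1.43% of all 27025 genes listed. The core of the NRF1 site, GCGCANGCG on either strand, was found in 3 of the 32 (9.38%), Dld, Ogdh and Sucla2, and in 7.03% of all genes. With 0 matches of the first motif, an overlap between the motifs could not occur. A match says only that these letters are present, and no match says nothing of the factor. The 3 promoters with a match are shown with the match in capitals, Ogdh at the first of its listed starts with a match. Suclg2 is shown beside Sucla2, since these alternative beta subunits differed in the comparison. The promoters shown lie at chr12:31351422-31351721 on the minus strand (Dld), chr11:6292308-6292607 on the plus strand (Ogdh), chr14:73552536-73552835 on the plus strand (Sucla2) and chr6:95718797-95719096 on the minus strand (Suclg2).
Dld: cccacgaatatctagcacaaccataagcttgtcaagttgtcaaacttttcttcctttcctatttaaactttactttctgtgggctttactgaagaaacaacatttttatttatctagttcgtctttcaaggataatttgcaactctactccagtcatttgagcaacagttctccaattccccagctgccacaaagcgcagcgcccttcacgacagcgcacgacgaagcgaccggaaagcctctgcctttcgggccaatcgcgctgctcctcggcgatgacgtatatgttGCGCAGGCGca
Ogdh: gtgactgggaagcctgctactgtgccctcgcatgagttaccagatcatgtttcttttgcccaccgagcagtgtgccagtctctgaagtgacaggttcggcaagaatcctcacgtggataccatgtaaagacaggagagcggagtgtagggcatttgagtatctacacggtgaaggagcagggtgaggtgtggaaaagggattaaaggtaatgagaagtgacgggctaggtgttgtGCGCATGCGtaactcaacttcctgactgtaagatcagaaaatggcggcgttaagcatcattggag
Sucla2: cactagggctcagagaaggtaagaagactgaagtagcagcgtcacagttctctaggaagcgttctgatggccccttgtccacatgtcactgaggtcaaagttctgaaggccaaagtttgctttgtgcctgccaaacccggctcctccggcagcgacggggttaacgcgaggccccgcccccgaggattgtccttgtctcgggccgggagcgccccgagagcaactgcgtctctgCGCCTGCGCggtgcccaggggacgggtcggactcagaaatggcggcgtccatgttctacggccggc
Suclg2: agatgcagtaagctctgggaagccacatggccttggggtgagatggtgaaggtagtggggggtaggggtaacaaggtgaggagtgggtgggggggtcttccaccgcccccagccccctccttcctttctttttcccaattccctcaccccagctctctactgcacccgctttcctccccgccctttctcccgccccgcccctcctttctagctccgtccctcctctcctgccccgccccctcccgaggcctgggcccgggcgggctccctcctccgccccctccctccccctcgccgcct

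The 6 cytosolic forms were all lower on average, and 2 of them passed the test, while 9.1% of all genes tested were called lower. Mdh1, the cytosolic malate dehydrogenase of the malate-aspartate shuttle, fell from 542, 529.8 and 844 CPM to 184, 255 and 183 CPM, a log2 fold change of -1.62 ± 0.28 (adjusted p = 0.0154, edgeR). Me1, the cytosolic malic enzyme that makes NADPH for lipid synthesis, had 198, 84.7 and 261 CPM in WT and 72.8, 53.4 and 47.1 CPM in sST2-KO mice, at a log2 fold change of -1.65 ± 0.41 (adjusted p = 0.0315, same test). WT replicate 2 was well below the other WT libraries in Me1 but still above every sST2-KO library. The call of Me1 was lost without WT replicate 1 or 3 or sST2-KO replicate 2 or 3.

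Pck1, cytosolic phosphoenolpyruvate carboxykinase, which in fat serves glyceroneogenesis, was the most abundant member per transcript length in both groups, with 2540.1 ± 681 CPM per kb in WT and 952 ± 549.9 in sST2-KO mice (SD, n = 3). Its CPM was 4939, 8566 and 6773 in WT and 2301, 4097 and 1198 in sST2-KO mice. No values overlapped, but the spread was wide, and the log2 fold change of -1.42 ± 0.50 did not pass (adjusted p = 0.0851, edgeR). The highest Pck1 value was in WT replicate 2, the library with the liver markers, and liver also expresses Pck1. Without that library the log2 fold change was -1.21 (adjusted p = 0.215, edgeR), and the part of the liver transcripts was not tested. Aco1, the cytosolic aconitase that doubles as an iron sensor, had a log2 fold change of -0.90 ± 0.27 (adjusted p = 0.0533, same test), and Idh1, the cytosolic NADP-linked isocitrate dehydrogenase, -0.59 ± 0.21 (adjusted p = 0.0852). Both were without overlap between groups, as were 19.7% of all genes in this direction. Got1, cytosolic aspartate aminotransferase, had 51.9, 126 and 73.1 CPM in WT and 49.3, 53.8 and 107 CPM in sST2-KO mice and a log2 fold change of -0.26 ± 0.41 (adjusted p = 0.682, same test). Its high values were in WT replicate 2 and sST2-KO replicate 3, the libraries that stood apart in liver and in muscle and macrophage markers. WT replicate 1, which stood apart in muscle markers, had the lowest WT value of Got1, and the part of these tissues was not tested. Without each library in turn the log2 fold change of Got1 went from -0.71 to 0.16.

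Among the 6 mitochondrial shuttle and anaplerotic genes, 2 fell and 1 rose, while 9.1% of all genes tested fell and 10.5% rose. Pcx, pyruvate carboxylase, which refills oxaloacetate, fell from 416, 600.3 and 729 CPM to 247, 210.2 and 101 CPM, a log2 fold change of -1.64 ± 0.38 (adjusted p = 0.0277, edgeR). Me3, a mitochondrial NADP-linked malic enzyme, fell from 73.4 ± 29.6 to 27.9 ± 9.70 CPM (SD, n = 3) and a log2 fold change of -1.39 ± 0.39 (adjusted p = 0.0452, same test), and its call held in 1 of the 6 fits that left out a library, the one without WT replicate 1. Me2, the NAD-linked mitochondrial malic enzyme, rose. It had 15.1, 13.7 and 12.7 CPM in WT mice and 24.04, 28.00 and 46.3 CPM in sST2-KO mice, the highest in replicate 3. The log2 fold change of 1.24 ± 0.28 (adjusted p = 0.0247, same test) ranged from 0.90 to 1.42 with each library left out, and the call was lost without WT replicate 2 or 3. Pdk3 and Me2, the pair that rose, are also among the 3 least abundant members per transcript length in WT mice, with 1.52 ± 0.259 and 2.77 ± 0.244 CPM per kb (SD, n = 3).

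Glud1, glutamate dehydrogenase, had 224, 265 and 278 CPM in WT and 172, 191 and 167 CPM in sST2-KO mice. The groups did not overlap, as in 19.7% of all genes in this direction. The log2 fold change of Glud1 was -0.53 ± 0.19 (adjusted p = 0.0217 by DESeq2 and 0.0866 by edgeR). Got2, the mitochondrial aspartate aminotransferase, had 40.02, 116 and 62.1 CPM in WT and 86.6, 82.9 and 126 CPM in sST2-KO mice and a log2 fold change of 0.44 ± 0.39 (adjusted p = 0.453, same test). WT replicate 2 lay above 2 of the 3 sST2-KO libraries, and without it the log2 fold change was 0.95. The annotation lists a processed copy named after Got2, so its reads may be shared with that copy and its level is uncertain. Pck2, the mitochondrial carboxykinase, had a log2 fold change of -1.06 ± 0.47 (adjusted p = 0.149, same test), and sST2-KO replicate 1 (72.4 CPM) lay above WT replicate 1 (57.9 CPM). Without sST2-KO replicate 1, Pck2 was called lower (-1.73, adjusted p = 0.0311, edgeR).

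Mitochondrial and cytosolic forms of the same enzyme were then compared within each library, by the log2 ratio of their counts, in which the library scaling cancels. Over 6 pairs, the groups were compared by a two-sided exact permutation test, which with 3 mice against 3 cannot go below 0.1. The ratio of Got2 to Got1 was -0.37, -0.12 and -0.23 in WT and 0.81, 0.63 and 0.24 in sST2-KO mice. The mitochondrial form thus had the lower raw count in every WT library and the higher raw count in every sST2-KO library. The difference was 0.80 ± 0.18 (exact p = 0.1, adjusted p = 0.2 over 6 pairs). Per transcript length, Got2 made up 59.1%, 55.9% and 49.2% of the pair in sST2-KO mice, so Got1 was still the larger in replicate 3. The ratio of Mdh2 to Mdh1 was 0.24, 0.50 and 0.44 in WT and 0.19, 0.02 and 0.032 in sST2-KO mice, a difference of -0.31 ± 0.10 (exact p = 0.1, adjusted p = 0.2), so the mitochondrial form was relatively lower in sST2-KO mice. The ratio of Me2 to Me1 moved most, from -3.71, -2.63 and -4.35 to -1.60, -0.93 and -0.024, a difference of 2.71 ± 0.68 (exact p = 0.1, adjusted p = 0.2). These 3 ratios did not overlap between groups and kept their direction with each library left out.

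The other 3 pairs overlapped. The ratio of Idh2 to Idh1 differed by -0.72 ± 0.53 (exact p = 0.3, adjusted p = 0.45), with the lowest value, 0.61, in sST2-KO replicate 3. The ratio of Pck2 to Pck1 differed by 0.33 ± 0.58 (exact p = 0.7, adjusted p = 0.84) and was at most -4.99 in any library, so Pck1 had far more counts in both groups. The ratio of Me3 to Me1 differed by 0.16 ± 0.72 (exact p = 0.9, adjusted p = 0.9). The pairs therefore shared no direction in these libraries, and with 3 mice against 3 none could pass an adjusted p of 0.05. Got2 and Me2 were relatively higher and Mdh2 relatively lower than their cytosolic partners in the sST2-KO libraries. Reads shared with the copy of Got2 limit its ratio too, and the ratios of Me2 and Me3 share Me1.

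**Figure D4:**
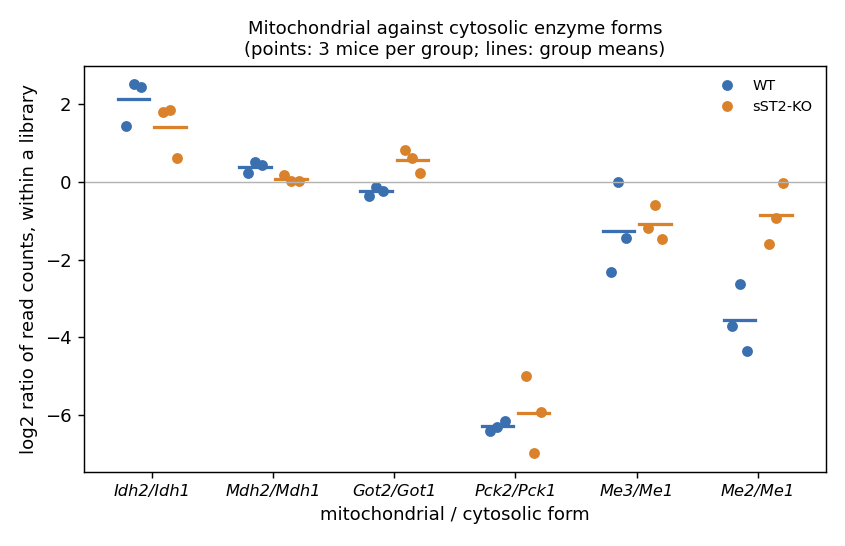
Log2 ratio of read counts of the mitochondrial to the cytosolic form (y axis) for 6 enzyme pairs (x axis), 1 point per mouse, with lines at the group means of 3 WT and 3 sST2-KO mice. The groups separate upward in Got2/Got1 and Me2/Me1, downward in Mdh2/Mdh1, and overlap in the other pairs; counts are not scaled by transcript length.

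Other genes of the pathway were taken from a fixed list of 27, of which 25 were tested. Of these, 15 fell and 2 rose, while 9.1% of all genes tested fell and 10.5% rose. The list's median log2 fold change was -1.25. The largest change was in Acod1, which makes itaconate from the cycle intermediate cis-aconitate and is known from activated macrophages. It had 1.03, 1.41 and 0.74 CPM in WT and 40.7, 9.26 and 211 CPM in sST2-KO mice, a log2 fold change of 6.32 ± 1.21 (adjusted p = 0.0174, edgeR), with its highest value in the same replicate 3 as the macrophage markers, whose part was not tested. The other gene of the list that rose was Slc25a12, the aspartate-glutamate carrier of muscle and brain, with 13.8, 10.4 and 10.5 CPM in WT and 26.6, 25.6 and 67.9 CPM in sST2-KO mice and a log2 fold change of 1.79 ± 0.41 (adjusted p = 0.026, same test). The largest falls were in Ldhb, the lactate dehydrogenase subunit of oxidative tissue, with -2.71 ± 0.49 (adjusted p = 0.0159), and Gpd2, the mitochondrial glycerol 3-phosphate dehydrogenase, with -2.62 ± 0.40 (adjusted p = 0.0136). The 4 succinate dehydrogenase subunits and the pyruvate carriers Mpc1 and Mpc2, named after their values were seen, were also among the 15.

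The members spread wider than complex I, but about as wide as the other pathway genes, whose quartiles were -1.93 and -0.74. The 12 mitochondrial TCA cycle genes alone had quartiles of -2.33 and -1.83. All 36 complex I genes fell, with quartiles of -1.89 and -1.60, whereas the quartiles of the 35 members were -1.93 and -0.75. Of 19 fatty acid oxidation genes, 16 fell (median -2.10). Of 14 glycolysis genes, 3 fell and 1 rose (median -0.50), and the one that rose, Pfkm, is the muscle form of phosphofructokinase and was named after its value was seen. Of all genes tested, 9.1% fell and 10.5% rose. These counts are descriptions, and differences between lists were not tested.

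**Figure D5:**
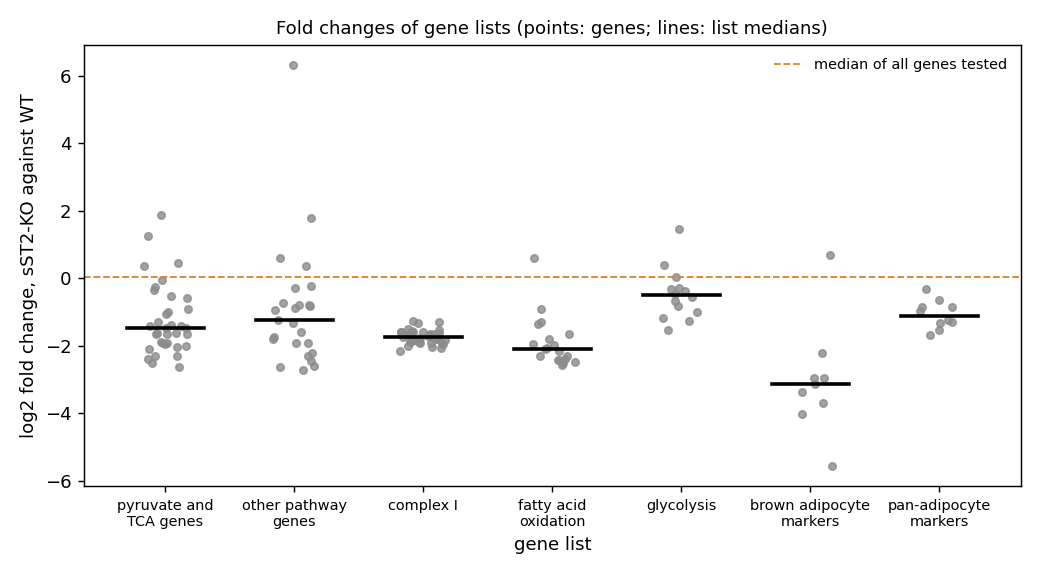
Log2 fold change (sST2-KO against WT, y axis) of single genes (points) in 7 gene lists (x axis), with list medians as lines and the median of all genes tested as a dashed line. Complex I is tightly grouped, the pyruvate and TCA genes extend from -2.62 to 1.88, and the brown adipocyte markers lie lowest.

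Most adipocyte markers were lower on average. The 10 pan-adipocyte markers, such as Adipoq and Plin1, had a median log2 fold change of -1.11, and 2 of them fell. The 9 brown adipocyte markers had a median of -3.13, and 8 of them fell. The remaining one, Zic1, was higher on average, at 0.68 ± 0.34 (adjusted p = 0.200, edgeR). Libraries were also scaled to the geometric mean of the pan-adipocyte markers, which shifted the median of all genes to 1.26 and that of the members to -0.36. The members then lay 1.62 below all genes on the log2 scale, and 1.51 below with TMM. This gap was almost fixed in advance, since a scaling shifts all genes nearly alike. With adipocyte scaling, 5 of the 22 lower members were called lower, namely Idh3a (-1.55), Suclg1 (-1.44), Sucla2 (-1.27), Ogdh (-1.22) and Fh1 (-1.18). Over all genes 1.24% were called lower. The members called higher were Pdk3 (3.27), Me2 (2.62), Got2 (1.85), Pdp1 (1.71) and Pdk1 (1.20), 5 of 35 (14.3%), where 53.9% of all genes were called higher. The PDH subunits lay between -0.97 and -0.35 relative to adipocyte markers.

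Markers of other cells moved with the comparison. All 12 skeletal muscle markers were higher on average in sST2-KO mice and 2 rose (median 4.13). All 10 macrophage markers were higher on average and 2 rose, with a median of 1.26. Of 5 T cell markers found in the table, 4 rose, and their sum went from at most 10.1 to at least 64.6 CPM. Of 5 neutrophil markers 1 rose, with a sum between 21.96 and 121 CPM in WT and between 110.4 and 582 CPM in sST2-KO mice. The 5 endothelial markers had a median of 0.17, with 1 that rose and 1 that fell. The 4 globin genes all fell (median -4.42), and the 3 liver markers that could be tested of 10 fell too. Of these, Alb and Apoa2 were highest in WT replicate 2, whereas Cyp2e1 had 396, 336 and 244 CPM in WT and 79.4, 72.6 and 59.1 CPM in sST2-KO mice. Most members are expressed in nearly all nucleated cells, and the part of these cells was not tested either.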

How the data were processed

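BAT of 3 WT and 3 sST2-KO mice was profiled by RNA-seq (paired-end reads from a kit that does not mark strand). The authors checked reads with FastQC 0.12.1, aligned them with HISAT2 2.2.1 to mm39 and counted them with htseq-count, and the deposited values are raw read counts per gene symbol. The strand setting and version of the counting are not given in the sources used here. Of the members, 25 of 35 overlap a gene on the opposite strand, among them Pdha1, Pdk3 and Me2, and such reads cannot be told apart. Libraries were assigned by their labels, and 0 per-sample columns were left unused.

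All fits used edgeR 4.0.16 (R 4.3.3), with filterByExpr on the groups (14542 genes kept), TMM factors, and glmQLFTest without a covariate. The standard error is the log2 fold change divided by the square root of F. The steps were tested on simulated data. Named genes are all members, and from the list of other pathway genes the 3 largest called changes and any called against the majority. The members and lists were chosen with earlier results of these data known. Ratios used 0.5 added to each count and scipy 1.17.1. Coordinates and canonical transcript lengths are from GENCODE on GRCm39, the build of the files; promoters are from RefSeq (GRCm38.p6). Results were recomputed with DESeq2 1.42.0, with RLE, total-count and adipocyte scaling, without a filter or with at least 10 counts per library, with robust estimation, with a replicate block, and with each library left out. Nothing states whether each mouse was housed or processed apart, so p values measure the spread between these samples. Figures were drawn with matplotlib 3.10.9.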

Additional observations from a re-analysis of the deposited data

How the results depend on the processing

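The counts of members (22 lower, 2 higher) and of all genes (1323 lower, 1524 higher) stayed within 1.5 times under DESeq2, RLE and total-count scaling, both other filters and robust estimation. With adipocyte scaling, 5 members were lower and 5 higher, and 180 genes were lower and 7832 higher, because that scaling moves all genes upward. With each library left out, members ranged from 0 to 21 lower and 0 to 2 higher, and genes from 22 to 1189 lower and 36 to 1502 higher; the lowest came without WT replicate 3 (for members higher, also without WT replicate 2). With the replicate block, 0 members and 0 genes passed in either direction by edgeR, while 24 members were lower and 2 higher, and 4623 genes differed, at an unadjusted p under 0.05. Same-numbered libraries correlated by -0.058, 0.21 and -0.31 in their deviations from the group means, and 2 of 6 libraries correlated best with their own number. With 3 libraries per group, in which single libraries stood apart, this cannot tell whether same-numbered libraries share more than a number. List medians moved with adipocyte scaling, chosen for them after seeing the data, to -0.36 (members), 0.0014 (other pathway genes), -0.59 (complex I), -1.04 (fatty acid oxidation) and 0.90 (glycolysis), and the other pathway genes to -0.99 with total counts; the members' median was -1.73 at the lowest and -1.29 at the highest after leaving out 1 library. Members that changed sign, none of them called with TMM, were Pdk1 (0.21 with total counts, 1.20 with adipocyte scaling, -0.13 to 0.0080 when leaving out libraries, positive without WT replicate 2) and Got1 (0.021, 1.22 and -0.71 to 0.16 in the same order), and with adipocyte scaling Pdk4 (0.12), Suclg2 (0.73), Aco1 (0.27), Idh1 (0.69), Pck2 (0.046) and Glud1 (0.71). The Pck2 to Pck1 difference went from -0.16 to 0.84, and that of Me3 to Me1 from -0.37 to 0.79, over the fits without 1 library; the cause was not tested. All other ratios kept their direction with a pseudocount of 2, with paired differences and without each library. Depth limits the members at few counts, such as Pdk3 in WT mice.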
